A study of Mus musculus with 6 samples.

Results

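The genes described here are 10 genes of the p53, RB and G1 checkpoint pathways in single cells of mouse melanoma: Cdkn2a, Cdkn2b, Cdkn1a, Cdkn1b, Trp53, Rb1, Ccnd1, Ccnd3, Cdk6 and Ccne1. They were chosen by symbol, and each of the 10 matched one of the 25215 genes listed. Of these, 8 were detected (a value above 0) in more than 5 of the retained cells and were among the 11264 genes tested, and Cdkn2a and Cdkn2b were not.

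The cells came from tumors of 6 C57BL/6 mice, each injected subcutaneously on both flanks with 50000 tumor cells on day 0 and harvested on day 15. B16 tumors were grown from the B16-F10 melanoma line and left untreated, B16PD1 tumors were grown from the same line in mice that received anti-PD1 (200 μg on each of days 5, 8 and 11), and R499 tumors, also untreated, were grown from Res499, a line established from a B16 tumor that had relapsed after radiation and anti-CTLA4. Each condition had 2 mice, and each line is a single derivation, so that the R499 values describe 1 resistant line. Sorting for CD45-negative cells removed most immune cells, and libraries of whole transcripts were then made by Smart-seq on the ICELL8 chip. Values are TPM, the abundance of a transcript relative to all transcripts of the cell, scaled to transcript length and to one total in every cell, so that levels of different genes can be set side by side. Tumors carry the numbers of the deposited columns (B16007, B16008, B16PD1000, B16PD1002, R499015 and R499016).

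Of 602 cells, 507 passed a minimum of 1000 genes detected and a mitochondrial share of TPM under 10% and were retained, between 75 and 91 per tumor. The reads behind a TPM value are unknown, so depth is given as the number of genes detected, whose median per tumor ranged from 3141 to 3838.5 and was 3141 and 3682 in the R499 tumors. All 10 melanocyte markers were detected, with Tyrp1, Dct and Pmel in each of the 507 cells, and the 6 keratinocyte markers were at 0. The summed TPM of 16 immune markers ranged from 7.31 to 233 per tumor and was lowest in the R499 tumors. Cd3d, Nkg7, S100a9 and Itgax were at 0, Ptprc, which encodes CD45, was detected in 1 cell, and Lyz2, Tyrobp and Fcer1g made up most of the sum. Summed TPM reached 3.30 for 8 fibroblast markers and 2.30 for 6 endothelial markers.

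In G1, D-type cyclins with Cdk4 or Cdk6, and then E-type cyclins with Cdk2, phosphorylate RB, which releases E2F factors and lets S phase genes be transcribed. The INK4 proteins encoded by Cdkn2a and Cdkn2b inhibit Cdk4 and Cdk6, whereas the CIP/KIP proteins p21 (Cdkn1a) and p27 (Cdkn1b) act on a wider set of cyclin and kinase complexes. Cdkn2a also encodes ARF, which shields p53 from the ubiquitin ligase Mdm2, and p53 activates Cdkn1a and Mdm2. In melanoma this pathway is best known for loss of CDKN2A.

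The first question was whether any tumor cell transcribed the INK4 genes. Neither Cdkn2a nor Cdkn2b was detected in a single cell of any tumor, before or after the filter on cells, while Mtap, the nearest protein-coding gene on one side and an enzyme of methionine salvage, was detected in most cells of every tumor. Cdkn2a lies at chr4:89274471-89294653 and Cdkn2b at chr4:89306299-89311039 on the minus strand of GRCm38, and the file has 1 value for Cdkn2a, which covers its INK4A and ARF transcripts together. Each was at 0 in 602 cells, which allows a share of up to 0.498%, and in the 507 retained cells, which allows up to 0.592%, where the limits cover counting error only and concern cells with a value above 0. None of the 1120 stretches of 50 bases in Cdkn2a transcripts, nor of the 1341 in those of Cdkn2b, occurred in a transcript of another gene, so reads of these genes need not have been split between copies. A value of 0 was common in the file: 10683 genes (42.4%) were at 0 in all cells. A value of 0 carries no information on the DNA of the locus.

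The promoter sequences of the INK4 genes are shown because both genes were at 0 in all tumors. They are the 250 bases before the annotated start in RefSeq on GRCm38.p6, 5′ to 3′ on the strand of the gene, and the first 2 belong to the ARF and INK4A starts of Cdkn2a. Capitals mark matches on either strand to E2F motifs (TTTCCCGC, TTTCGCGC, TTTGCCGC or TTTGGCGC), the Sp1 motif GGGCGG or TATAAA.
Cdkn2a, ARF start, chr4:89294620-89294869, minus strand: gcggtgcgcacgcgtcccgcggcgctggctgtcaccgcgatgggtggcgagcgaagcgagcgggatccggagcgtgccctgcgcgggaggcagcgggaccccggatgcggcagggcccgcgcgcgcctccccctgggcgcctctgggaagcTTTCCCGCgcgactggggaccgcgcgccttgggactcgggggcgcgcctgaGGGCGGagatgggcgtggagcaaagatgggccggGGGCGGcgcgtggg
Cdkn2a, INK4A start, chr4:89282193-89282442, minus strand: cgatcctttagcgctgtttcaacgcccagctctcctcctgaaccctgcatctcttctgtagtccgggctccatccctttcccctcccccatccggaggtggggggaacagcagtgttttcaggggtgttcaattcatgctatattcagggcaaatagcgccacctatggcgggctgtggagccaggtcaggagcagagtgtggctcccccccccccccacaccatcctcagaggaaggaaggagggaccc
Cdkn2b, chr4:89311033-89311282, minus strand: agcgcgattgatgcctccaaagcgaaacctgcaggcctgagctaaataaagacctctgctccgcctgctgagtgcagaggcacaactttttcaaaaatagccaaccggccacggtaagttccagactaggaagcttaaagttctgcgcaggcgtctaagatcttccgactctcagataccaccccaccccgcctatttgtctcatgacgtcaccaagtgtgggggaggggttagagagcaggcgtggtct
The ARF window held 1 E2F match and 2 Sp1 matches at 78.4% G and C, and the INK4A and Cdkn2b windows (60.0% and 53.6% G and C) held no match. Among 32851 promoter windows of this length in the annotation, 1.86% held an E2F match, 32.7% an Sp1 match and 12.4% TATAAA. Of the 10 genes, 8 had such a window, and 11 windows were found in all.

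Along chromosome 4 the values changed from one gene to the next. Mtap (chr4:89137122-89181081) was detected in 438 of 507 cells (86.4%, 95% Wilson interval 83.1 to 89.1), with 82, 71, 77, 78, 69 and 61 cells in B16007, B16008, B16PD1000, B16PD1002, R499015 and R499016 and a median of 80.5 TPM where detected. It was therefore present in over 80% of the cells of every tumor, at a distance of 174 kb from the start of Cdkn2b. Beyond it on that side came 4 interferon genes (Ifne, Ifna1, Ifna4 and Ifna5), all at 0. On the other side, Dmrta1, Zfp352, Izumo3 and Tusc1 were at 0 and Elavl2 was detected in 1 cell. In a window of 1.5 Mb on each side, which was chosen after these values were seen, 27 protein-coding genes were listed. Of these, 21 were at 0 in all cells, including Cdkn2a, Cdkn2b and 16 of 17 type I interferon genes. Of all genes listed, 42.4% were at 0 in all cells. Also chosen after their values were seen, Klhl9, an adaptor of a ubiquitin ligase, was detected in 341 cells, Focad in 102, Mllt3 in 100 and Hacd4 in 83. The protein-coding genes listed between Mtap and Elavl2 were only Cdkn2a, Cdkn2b, Dmrta1 and Zfp352, none of them detected in any retained cell.

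**Figure D1:**
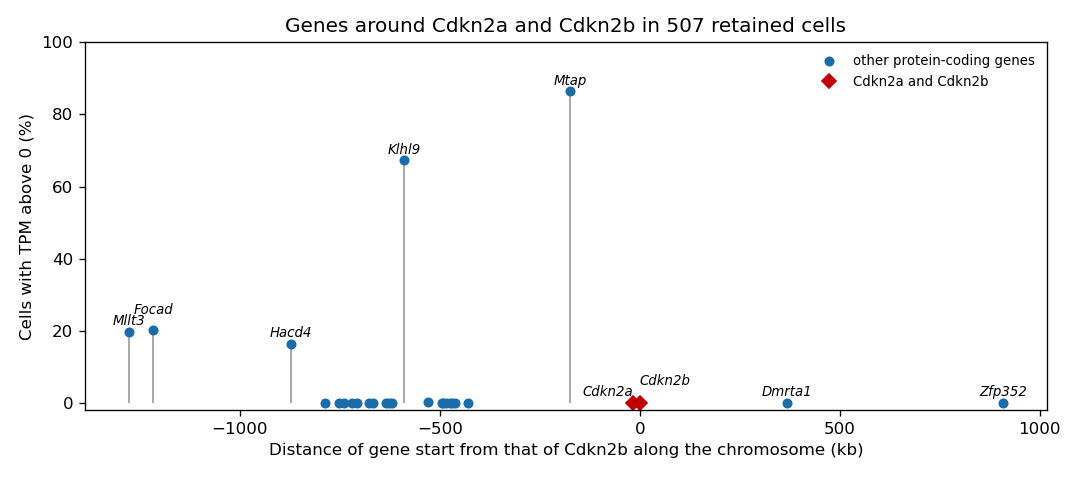
Percentage of the 507 retained cells with TPM above 0 (y axis) for the protein-coding genes listed within 1.5 Mb of Cdkn2a and Cdkn2b, against the distance of their start from that of Cdkn2b along the chromosome in kb (x axis). Cdkn2a and Cdkn2b (diamonds) and all genes to their right lie at 0, whereas Mtap, the nearest point to their left, lies at 86.4%.

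The other INK4 genes were detected. Cdkn2d was found in 194 of the 507 cells and in 33.7% to 44.2% of the cells of a tumor, and Cdkn2c in 68 cells and 9.89% to 17.4%. Cdkn1c, the remaining CIP/KIP gene, was at 0. Abundant genes that every cell uses were rarely at 0. Actb, Gapdh, Eef1a1, Ppia and Pgk1 were at 0 in none of the 507 cells and Rplp0 in 2. At lower levels such genes were at 0 more often, Tbp in 286 cells and Hprt in 70.

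Among the 8 genes detected, Trp53, Cdkn1a, Ccnd3, Ccnd1 and Cdkn1b were found in most cells and Cdk6, Ccne1 and Rb1 in few. Averaged over tumors, Trp53 had the highest level (5.73 ± 0.48, SD over 6 tumors, on the log2(TPM + 1) scale, on which all levels below are means over the cells of a tumor), then Cdkn1a (4.70 ± 0.70), Ccnd3 (3.80 ± 0.43), Ccnd1 (3.05 ± 0.40) and Cdkn1b (2.57 ± 0.21). Ccne1 (0.58 ± 0.29), Cdk6 (0.57 ± 0.12) and Rb1 (0.29 ± 0.073) were lower. In this order the tumor ranges of neighbors overlapped, except between Cdkn1b and Ccne1 and between Cdk6 and Rb1.

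**Figure D2:**
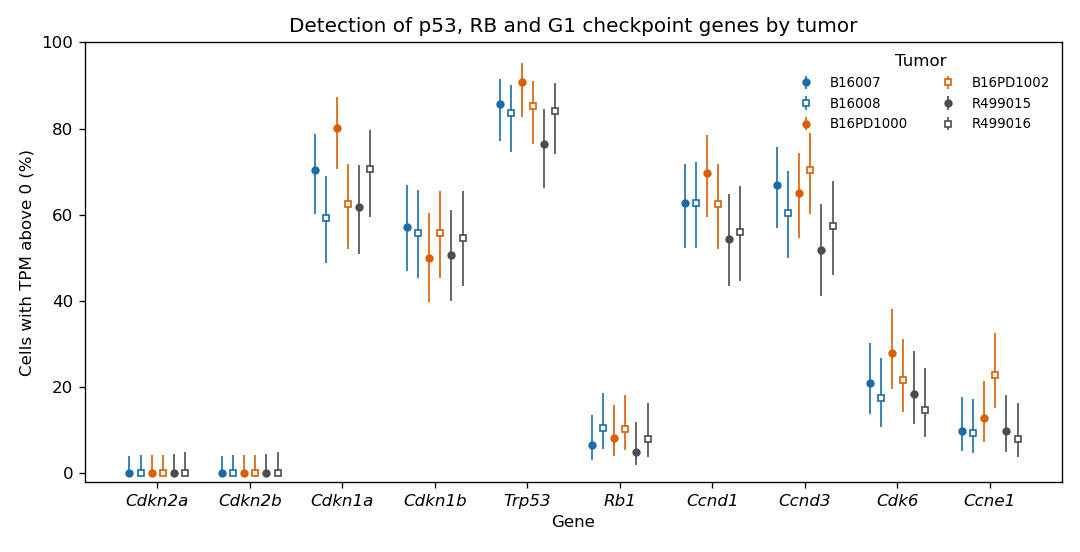
Percentage of retained cells with TPM above 0 (y axis) for the 10 genes (x axis) in each of the 6 tumors, colored by condition, with 95% Wilson intervals that cover counting error only. Cdkn2a and Cdkn2b lie at 0 in every tumor, Trp53 lies highest, and the intervals of most tumors overlap for each gene.

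Cdkn1a (chr17:29090976-29100727, plus strand), which encodes the p53 target p21, was detected in 342 of 507 cells (67.5%, interval 63.3 to 71.4). Its first RefSeq promoter window is shown because it held a match to the p53 site, searched by name as 20 bases with at most 1 mismatch, which 25 of 32851 windows (0.0761%) held. The site, in capitals, ends 32 bases before the start.
Cdkn1a, chr17:29090729-29090978, plus strand: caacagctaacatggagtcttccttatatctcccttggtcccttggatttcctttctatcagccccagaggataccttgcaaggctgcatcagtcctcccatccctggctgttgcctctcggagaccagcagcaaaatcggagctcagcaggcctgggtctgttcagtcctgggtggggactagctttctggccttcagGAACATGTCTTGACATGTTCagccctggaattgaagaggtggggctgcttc
The second window of the gene (chr17:29093519-29093768) held no p53 site and 2 Sp1 matches. The share of cells with Cdkn1a was 70.3% in B16007, 59.3% in B16008, 80.2% in B16PD1000, 62.5% in B16PD1002, 61.7% in R499015 and 70.7% in R499016. Its level was 4.40, 3.92, 5.85, 4.36, 4.46 and 5.22 in the same order. B16PD1000 was the highest tumor on both measures and B16008 the lowest, and the conditions overlapped. Where detected, Cdkn1a had a median of 145 TPM, the highest of the 10 genes, and an interquartile range of 51.3 to 302 TPM.

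Cdkn1b (chr6:134920401-134925513, plus strand), which encodes p27, was detected in 274 cells (54.0%) at a median of 26.5 TPM. Its level was 2.80 in B16007, 2.75 in B16008, 2.21 in B16PD1000, 2.55 in B16PD1002, 2.48 in R499015 and 2.61 in R499016 and varied least of the 5 common genes. The B16 tumors were the 2 highest, and the share of all genes for which this holds was not computed. The limma adjusted p of Cdkn1b was 0.989 in B16PD1 minus B16 and 0.834 in R499 minus B16. Cdkn1a or Cdkn1b was detected in 399 cells (78.7%) and both in 217 (42.8%).

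Trp53 (chr11:69580359-69591873, plus strand), which encodes p53, was detected in 428 cells (84.4%, interval 81.0 to 87.3) at a median of 112 TPM. The level in the 6 tumors, listed as for Cdkn1a, was 5.65, 5.50, 6.37, 5.90, 4.95 and 5.98, and the R499 tumors spanned most of this range. Of the 50-base stretches of its transcripts, 3.88% also occurred in other genes, nearly all in the pseudogene Trp53-ps, which was at 0 in all retained cells. Mdm2, both a target of p53 and its inhibitor, was detected in 321 cells and together with Trp53 in 286. Cdkn1a was detected without Trp53 in 46 cells (9.07%).

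Rb1 (chr14:73183673-73325822, minus strand), the retinoblastoma gene, was detected in 41 cells (8.09%, interval 6.02 to 10.8), with 6, 9, 7, 9, 4 and 6 cells in the order of tumors above. Counts this low in each tumor give wide intervals, which overlapped between all tumors. Its relatives Rbl2 and Rbl1, which encode p130 and p107, were detected in 169 and 72 cells, and 1 or more of the 3 in 225 cells (44.4%). None of the 127 cells with the fewest genes detected had Rb1, against 18.1% of the 127 with the most. In the list of 19 RB family, E2F and DREAM genes (DREAM is the repressor complex of p130 or p107 with E2F4), Rbbp4, Hdac1 and Lin37 were the most abundant, at 90.7, 86.9 and 66.4 TPM on average.

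Ccnd1 (chr7:144929931-144939925, minus strand) and Ccnd3 (chr17:47505051-47599691, plus strand) encode the D-type cyclins D1 and D3 and were detected in 312 (61.5%) and 316 cells (62.3%). Ccnd1 had a level of 3.50 in B16007, 3.23 in B16008, 3.38 in B16PD1000, 2.99 in B16PD1002, 2.42 in R499015 and 2.79 in R499016. Ccnd3 had levels of 4.09, 3.74, 3.98, 4.35, 3.20 and 3.41 in the same order. For both cyclins the R499 tumors were the 2 lowest of the 6 by level, as they were for 17.8% of all genes tested. They were also lowest by detection, at 54.3% and 56.0% of cells for Ccnd1 and 51.9% and 57.3% for Ccnd3. For detection the share over all genes was not computed. By mean TPM the R499 tumors were the 2 lowest for Ccnd3 but not for Ccnd1. Ccnd1 had 45.8 TPM in R499016, the highest of the 6 tumors, against 45.7 in B16007 and 22.0 in R499015. Ccnd2, which encodes the remaining D-type cyclin, was more widespread than either, in 478 cells and at a mean of 222 TPM. At least 1 D-type cyclin was detected in 492 cells (97.0%) and all 3 in 216 (42.6%).

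Cdk6 (chr5:3341485-3531008, plus strand), a kinase partner of D-type cyclins, was detected in 103 cells (20.3%) at a median of 5.80 TPM, the lowest among the 8 genes. Its share ran from 14.7% in R499016 to 27.9% in B16PD1000. Cdk4, which binds the same cyclins, was detected in 498 cells at a mean of 700.5 TPM, and 1 cell had Cdk6 without Cdk4. Cdk2, the partner of E-type cyclins, was detected in 497 cells.

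Ccne1 (chr7:38097984-38107534, minus strand), which encodes cyclin E1, was detected in 62 cells (12.2%, interval 9.66 to 15.4) at a median of 22.9 TPM. Its share was 9.89% in B16007, 9.30% in B16008, 12.8% in B16PD1000, 22.7% in B16PD1002, 9.88% in R499015 and 8.00% in R499016. B16PD1002 stood above the other tumors, with 20 of the 62 cells. Ccne2 (cyclin E2) was detected in 87 cells, either E-type cyclin in 129 (25.4%) and both in 20. The promoter window of Ccne1 is shown for its Sp1 matches, of which it held 4, the most among the 11 windows, and it held no E2F motif of the letters searched.
Ccne1, chr7:38107491-38107740, minus strand: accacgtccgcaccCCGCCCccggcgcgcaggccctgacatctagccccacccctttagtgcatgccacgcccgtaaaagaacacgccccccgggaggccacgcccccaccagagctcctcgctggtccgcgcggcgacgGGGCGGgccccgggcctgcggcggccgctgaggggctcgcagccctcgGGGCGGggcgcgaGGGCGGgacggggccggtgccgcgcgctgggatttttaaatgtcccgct
No statement on binding follows from a match or from its absence.

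Every gene but the INK4 pair was detected more often in the cells with the most genes detected than in those with the fewest. From the 127 cells with the fewest genes detected (1007 to 2625) to the 127 with the most (4625 to 6816), the share with Cdkn1b went from 19.7% to 85.0%, with Ccnd1 from 29.1% to 87.4%, with Ccnd3 from 30.7% to 87.4%, with Cdkn1a from 43.3% to 89.0% and with Trp53 from 60.6% to 98.4%. Ccne1 went from 7.87% over 2.36% and 15.1% to 23.6%. Over the 507 cells the number of genes detected accounted for 1.18% (Cdk6) to 17.5% (Cdkn1b) of the variance of a gene and the tumor for 0.407% (Rb1) to 3.26% (Cdkn1a). The number of the 10 genes detected in a cell ranged from 0 in 12 cells to 8 in 1 cell, and 119 cells had 4.

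The conditions were compared next, on the 6 tumor levels with limma, two-sided, with Benjamini-Hochberg adjustment over all 11264 genes. No gene of the 10 passed an adjusted p of 0.05 in any contrast. In B16PD1 minus B16, 0 of the 8 genes tested were called, where 0% of all genes were, and 2 of the 8 had an unadjusted p under 0.05, where 4.69% of all genes did. In R499 minus B16 these counts were 0 (0.0621% of all genes called) and 1 (10.5%), and in R499 minus B16PD1 0 (0.071%) and 2 (10.2%). The 2 tumors of a condition were separate mice, and the contrasts share tumors, so their counts are not independent.

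After anti-PD1, the differences with the lowest unadjusted p were those of Cdkn1a and Ccne1. Cdkn1a differed by 0.94 (SE 0.44) in B16PD1 minus B16 and Ccne1 by 0.40 (SE 0.18), both with a limma adjusted p of 0.989. Each came mainly from 1 tumor. Without B16PD1000 the Cdkn1a difference was 0.20, and without B16PD1002 the Ccne1 difference was 0.11. Trp53 differed by 0.56 (SE 0.37) and Cdkn1b by -0.39 (SE 0.31), and the other 4 genes lay between -0.18 and 0.25. The median of the 8 was 0.14, against 0.012 over all genes.

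Both D-type cyclins among the 10 genes had lower values in R499 than in the other conditions, with no difference past the threshold. Ccnd1 differed by -0.76 (SE 0.33, 95% interval -1.46 to -0.068, limma adjusted p = 0.429) in R499 minus B16 and Ccnd3 by -0.61 (SE 0.33, adjusted p = 0.535). Against B16PD1 the differences were -0.58 (SE 0.33, adjusted p = 0.566) for Ccnd1 and -0.86 (SE 0.33, adjusted p = 0.404) for Ccnd3, and Ccne1 differed by -0.46 (SE 0.18, adjusted p = 0.416), or by -0.17 without B16PD1002. Both R499 tumors lay below the other 4 tumors for Ccnd1 and Ccnd3, as they did for 17.8% of all genes tested, and above them for none of the 8 genes, against 4.47%. Over all genes the median difference was -0.073 in R499 minus B16 and -0.089 in R499 minus B16PD1, and the median number of genes detected and the summed immune markers were also lowest in an R499 tumor. With TPM averaged before the log2, Ccnd1 differed by -0.41 in R499 minus B16 and by -0.049 in R499 minus B16PD1, and Ccnd3 by -0.45 and -0.61. With the number of genes detected as a covariate, the R499 minus B16 differences were -0.40 (SE 0.50) for Ccnd1 and -0.33 (SE 0.52) for Ccnd3. In that fit B16PD1 minus B16 was -0.39 (SE 0.40) for Ccnd1 and 0.081 (SE 0.41) for Ccnd3. Ccnd1 was then about as low in B16PD1 as in R499. The part of depth and of immune RNA in these differences was not tested beyond this. Ccnd2 differed by -0.77 (SE 0.36, adjusted p = 0.462) in R499 minus B16, whereas its kinase Cdk4 differed by 0.35 (SE 0.25, adjusted p = 0.658).

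**Figure D3:**
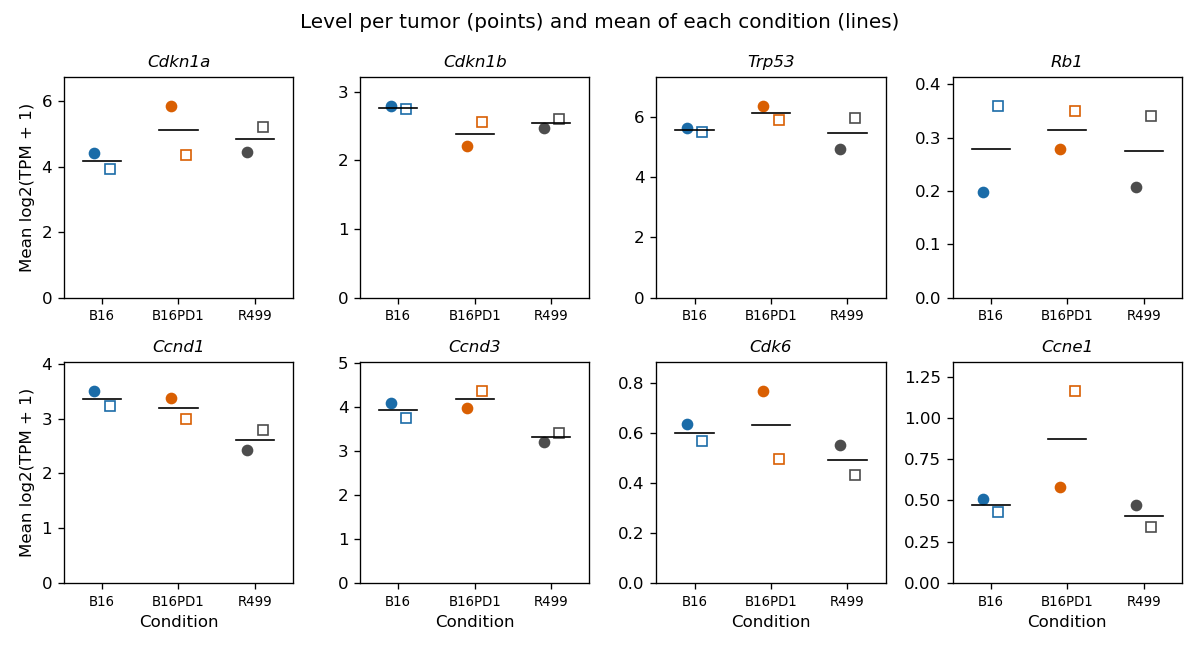
Mean log2(TPM + 1) over retained cells (y axis) in each tumor (points, filled for the lower and open for the higher tumor number) by condition (x axis) for the 8 genes detected, with the mean of the condition as a line. Both R499 points lie below the other 4 for Ccnd1 and Ccnd3, and 1 tumor stands above its pair in B16PD1 for Cdkn1a and for Ccne1.

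Other genes of the pathway, taken from lists, did not pass the test between conditions either. Of 11 other G1 cyclins and kinases tested, 19 RB family, E2F and DREAM genes, 18 p53 regulators (led by Rpl11, Rpl5 and Myc) and 28 p53 targets (led by Bax, Sertad1 and Mdm2), 0 were called by limma in each of the 3 contrasts. At an unadjusted p under 0.05 these lists had 1, 0, 2 and 2 genes in B16PD1 minus B16, 1, 0, 4 and 4 in R499 minus B16 and 1, 1, 4 and 3 in R499 minus B16PD1, where 4.69%, 10.5% and 10.2% of all genes did. The p53 targets had median differences of -0.015, -0.19 and -0.14 in these contrasts, against 0.012, -0.073 and -0.089 over all genes. Bax, a proapoptotic target of p53, differed by -1.22 (SE 0.38, adjusted p = 0.315) in R499 minus B16PD1. The S phase list of 43 genes (Pcna, Rfc2 and Tipin were the most abundant) had 0 called genes, medians of 0.093, -0.32 and -0.47 in the same 3 contrasts, and 4, 10 and 16 genes at an unadjusted p under 0.05. The G2/M list of 54 genes, led by Jpt1, Cks1b and Cdk1, had 0 called genes, medians of 0.27, 0.0064 and -0.29, and 4, 2 and 5 genes at an unadjusted p under 0.05. In B16PD1 minus B16, 47 of the 54 G2/M genes had a positive difference, against 52.97% of all genes. The B16 tumors differed widely on this list. Its summed TPM was 2661.82 in B16007, the lowest of all tumors, and 3959.14 in B16008, the highest. Both B16PD1 tumors lay between them, at 3677.07 in B16PD1000 and 3400.48 in B16PD1002. Whether the positive signs depend on B16007 was not tested.

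Whether the checkpoint genes followed the cell cycle was examined between cells of the same tumor. Each tumor was divided at its median of an S phase score, the mean level of the 43 genes with the number of genes detected removed, and per gene the difference between the 252 high and the 255 low cells was estimated in each tumor with the number of genes detected as a covariate. The 6 differences were tested against 0 with limma. Of the 507 cells, 52 lay within 0.1 SD of the median, so the groups are ranges of a score and not phases. Ccne1 had the largest difference of the 8 genes and was higher in high cells of each of the 6 tumors, and the differences of the other 7 did not have the same sign in all 6 tumors.

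For Ccne1 the differences were 0.43 in B16007, 0.73 in B16008, 0.35 in B16PD1000, 1.17 in B16PD1002, 0.36 in R499015 and 0.36 in R499016, with a mean of 0.57 (SE 0.14, 95% interval 0.23 to 0.90). By detection, 44 of 252 high cells (17.5%) and 18 of 255 low cells (7.06%) had Ccne1, and the share was larger in the high cells of all 6 tumors, from 10.8% against 5.26% in R499016 to 31.8% against 13.6% in B16PD1002. This difference did not pass adjustment over 11221 genes (limma adjusted p = 0.133), where 125 genes (1.11%), all higher, were called. Of all genes 5.30% were higher in each of the 6 tumors. Without the number of genes detected in score and fit, Ccne1 differed by 0.79 (limma adjusted p = 0.0319), and 1838 of the 11221 genes were called.

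**Figure D4:**
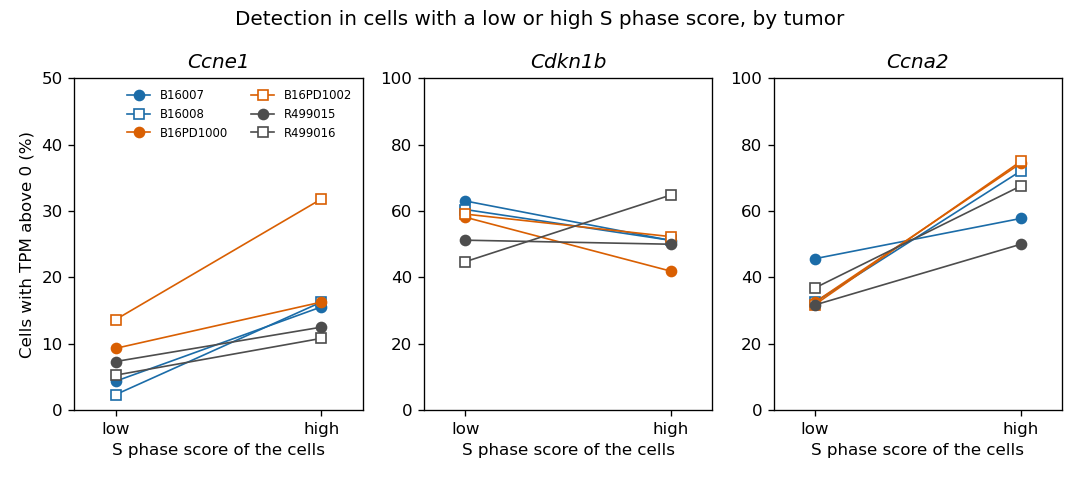
Percentage of cells with TPM above 0 (y axis, to 50% for Ccne1 and to 100% for the others) among cells with a low or high S phase score (x axis) for Ccne1, Cdkn1b and Ccna2, with 1 line per tumor. Ccne1 and Ccna2 are higher in the high cells of all 6 tumors, and Cdkn1b is lower in 5 of them and higher in R499016.

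Cdkn1b differed by -0.32 (SE 0.19, limma adjusted p = 0.482) with the S phase score, at -0.83 in B16007, -0.53 in B16008, -0.84 in B16PD1000, -0.36 in B16PD1002, 0.19 in R499015 and 0.43 in R499016. The sign in the R499 tumors depended on the measure: by detection Cdkn1b was higher in the high cells of 1 tumor, R499016, and its correlation over cells with the S phase genes, given below, was negative in both. The difference between R499 and B16 in this contrast, fitted after it was seen, was 0.99 (SE 0.27, limma adjusted p = 0.826 over all genes). Cdkn1a differed by -0.40 (SE 0.32), from -1.63 in B16008 to 0.84 in B16007. Trp53, Ccnd1, Ccnd3, Cdk6 and Rb1 had mean differences from -0.079 to 0.20, within the spread of the tumors.

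The score itself separated cycling genes. Of the 54 G2/M genes, none of which is in the score, 21 were called and rose, led by Cdk1 (2.91, SE 0.37, adjusted p = 0.0235), Birc5 (2.71, SE 0.41, adjusted p = 0.0315) and Aurkb (2.34, SE 0.28, adjusted p = 0.0235), which encode 2 mitotic kinases and survivin. Ccna2, which encodes cyclin A2, the cyclin of S and G2, was the 1 called gene among the other G1 cyclins and kinases and rose by 2.52 (SE 0.36, limma adjusted p = 0.0312), and Chek1, the checkpoint kinase, by 1.58 (SE 0.23, adjusted p = 0.0312). Of 28 p53 targets 0 were called and 9 had an unadjusted p under 0.05 (15.3% of all genes did), with a median of -0.21 against -0.0011 over all genes. Mdm2 differed by -0.53 (SE 0.18, adjusted p = 0.215) and was lower in high cells of each of the 6 tumors, as were 3.70% of all genes. By detection Mdm2 was higher in the high cells of 2 tumors, R499015 (60.0% against 58.5%) and R499016 (67.6% against 63.2%). Of 18 RB family, E2F and DREAM genes 0 were called and 4 had an unadjusted p under 0.05.

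With the G2/M score, which divided 252 high and 255 low cells in the same way, no gene of the 10 was called, against 1.03% of 11210 genes, and none of the 8 had the same sign in all 6 tumors, against 8.8% of genes. Ccne1 differed by 0.24 (SE 0.23), with 1.30 in B16PD1002 and 0.75 in B16008 and between -0.40 and 0.22 in the other 4 tumors. Ccnd3 differed by -0.31 (SE 0.15, limma adjusted p = 0.385), Ccnd1 by -0.27 (SE 0.30) and Cdkn1a by 0.13 (SE 0.22). Without the number of genes detected in score and fit, Cdkn1a (0.83), Cdkn1b (0.85) and Trp53 (0.72) passed the threshold, the last 2 with the opposite sign to that above. In that fit 2810 of the 11210 genes passed. Of the 43 S phase genes 18 were called, led by Rrm2 (2.61), Tyms (2.17) and Mcm5 (1.93), genes of deoxynucleotide synthesis and of the replicative helicase. Ccna2 (3.04, SE 0.37, adjusted p = 0.0140) and Ccne2 (0.86, SE 0.15, adjusted p = 0.0440) also rose, and the scores share cells, with r = 0.534 between them over 507 cells. Leaving out any 1 tumor other than R499016 left 0 genes called with either score.

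**Figure D5:**
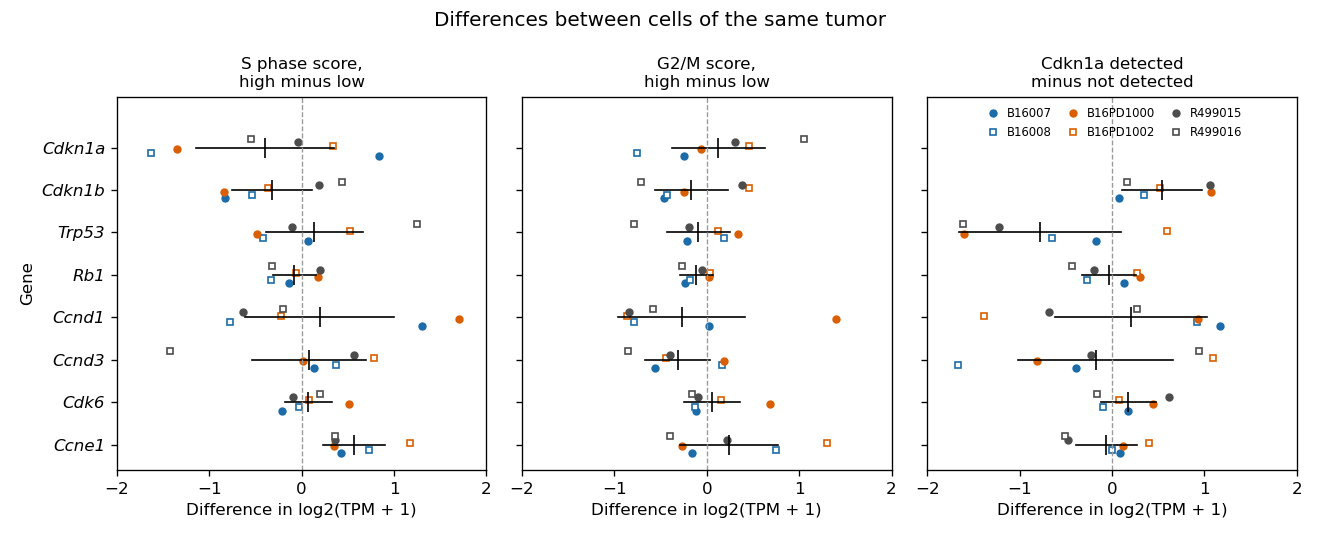
Difference in log2(TPM + 1) between cells of the same tumor (x axis) for the 8 genes (y axis) with the S phase score, with the G2/M score and with detection of Cdkn1a, as 1 point per tumor with the mean and its 95% interval from limma in black. The 6 points of Ccne1 lie above 0 with the S phase score, those of Cdkn1b lie above 0 with Cdkn1a, and all other sets of points lie on both sides of 0.

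Cells with and without p21 transcripts were also compared within tumors, since Cdkn1a is a classical p53 target. Between the 342 cells with Cdkn1a and the 165 without, 0 of 11263 genes were called (0%), and 624 (5.54%) had an unadjusted p under 0.05. Cdkn1b was higher with Cdkn1a in each of the 6 tumors, by 0.075, 0.34, 1.07, 0.52, 1.06 and 0.17 and on average 0.54 (SE 0.18, limma adjusted p = 0.802), where 2.19% of genes were higher in all 6. Cells with Cdkn1a had more genes detected in every tumor, and without that covariate the Cdkn1b difference was 1.42 (adjusted p = 0.0259). Without it 2183 of the 11263 genes were called. Trp53 differed by -0.78 (SE 0.38, adjusted p = 0.802) and was lower in 5 of 6 tumors, the exception being B16PD1002 at 0.60.

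Of 28 p53 targets tested, 0 were called with Cdkn1a, 2 had an unadjusted p under 0.05, 18 were positive (against 50.8% of all genes), and the median was 0.082 against 0.0028. Bax differed by 0.79 (SE 0.33, limma adjusted p = 0.802) and was higher in 5 of 6 tumors, Ccng1, another target, by 0.60 (SE 0.28) in 4 of 6, and Mdm2 by 0.055 (SE 0.32) in 3 of 6. Over the 507 cells, with tumor and number of genes detected removed, Cdkn1a had a correlation of r = 0.212 with the mean of the p53 targets, positive in each of the 6 tumors (0.10 to 0.370), and Trp53 one of r = -0.029. These correlations are over cells that share libraries and depth and are given as a description. The share of all genes with a positive correlation in all 6 tumors was not computed.

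Correlations between the 8 genes over cells were weak. Many of their values were 0, so weak correlations cannot show that the genes vary independently. Over 28 pairs of the 8 genes, r over 507 cells after the same removal ran from -0.112 (Cdkn1a with Trp53) to 0.132 (Cdkn1a with Cdkn1b). Ccne1 had r = 0.252 with the S phase score and a positive sign in 6 of 6 tumors, and Cdkn1b had r = -0.130 and a negative sign in 6 of 6. For these signs too, the share over all genes was not computed. For genes in at least 20% of cells, the closest 3 genes of all were found by the same measure. For Cdkn1a these were Ero1l (r = 0.258), an oxidase of the endoplasmic reticulum, the glycolytic gene Gapdh (0.231) and Ndrg1 (0.231), and for Cdkn1b Map3k1 (0.231), Ier3 (0.214) and Gapdh (0.212). For Trp53 they were Tmem167 (0.194), Atp6v1b2 (0.175) and Set (0.172), for Ccnd1 Zc3h13 (0.194), Hsp90ab1 (0.193) and Itgb1 (0.181), for Ccnd3 Zfp36l1 (0.204), Mis12 (0.203) and Chtf8 (0.176), and for Cdk6 Mavs (0.196), H2-Eb1 (0.186), which was in 15 cells, and Arsk (0.185). All are weak correlations in sparse values.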

How the data were processed

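Single-cell libraries of 6 tumors (2 each of B16, B16PD1 and R499) were analysed from the TPM of 25215 genes in 602 cells. Reads were mapped by the authors with STAR (2-pass), and the TPM deposited for every cell, with no filter, came from RSEM. Per the labels, the build was mm10, and versions are not given in the sources used here. The columns name the condition and a tumor number that is not a replicate number of the labels.

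Cells were kept that had over 1000 genes detected and a mitochondrial share of TPM under 10%, as were genes detected in more than 5 of these cells (507 cells, 11264 genes). Doublets were not called. Tumor means of log2(TPM + 1) were compared with limma 3.58.1 in R 4.3.3 (eBayes with a trend, two-sided, Benjamini-Hochberg, threshold 0.05), all 6 tumors in 1 fit. Contrasts within tumors were coefficients of least squares on the score group and the number of genes detected, 1 per tumor, tested against 0 in the same way without the genes of the score. A difference on this scale understates the change of low genes. The remaining computations ran in pandas 2.3.3, numpy 2.4.6 and scipy 1.17.1 under Python 3.11.15, with figures by matplotlib 3.10.9. Positions are those of GENCODE M21 (GRCm38, 25103 gene IDs matched), and promoters those of RefSeq (GRCm38.p6).

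The genes and lists were chosen with earlier results of these data known. Named beside the 10 genes were the 5 nearest protein-coding genes on each side of Cdkn2a and Cdkn2b, the 3 most abundant genes of each list and those past the threshold (the 3 largest differences if over 5 passed), and the 3 closest genes of each member in at least 20% of cells. Other genes named were chosen after their values were seen. The fits were tested on simulated data. For the conditions these were cells drawn from all tumors together, without the spread between tumors. That test cannot show how the fits deal with this spread. Alternatives were pseudocounts of 0.1 and 10, other scales and filters, a depth covariate or none, no trend, cells of middle score left out, and each tumor left out.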

Additional observations from a re-analysis of the deposited data

Results flagged for a closer look

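Among 23 sets of 6 tumor values (the within-tumor differences of the 8 genes detected, without Cdkn1a in its own contrast), the extreme tumor lay far from the others in 2, and chance alone marks about 1 in 20 such sets. For Ccnd3, the difference between cells with a high and a low S phase score was -1.43 in R499016, while the other 5 tumors lay between 0.018 and 0.79. For Cdk6, the difference with the G2/M score was 0.69 in B16PD1000, while the others lay between -0.16 and 0.15. The difference of the within-tumor contrasts between conditions was tested with limma in 69 fits of members, added after the data were seen, and the lowest adjusted p was 0.80.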

How the results depend on the processing

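No paired analysis was possible because the columns carry tumor numbers that are not the replicate numbers of the labels. Of 793 differences of the 8 genes under alternatives, 718 kept their sign and their side of the threshold, 72 changed sign (28 with a tumor left out) and 3 kept their sign and passed. The lowest adjusted p was 0.0182. All calls of members came without the number of genes detected in score and fit: 1 with the S phase score (Ccne1), 3 with the G2/M score (Cdkn1a at 0.83, Cdkn1b and Trp53) and 1 with Cdkn1a (Cdkn1b). Genes called over all genes ranged under the alternatives from 0 to 28 (7 as reported) in R499 minus B16, from 0 to 22 (8) in R499 minus B16PD1, from 0 to 2 (0) in B16PD1 minus B16, from 0 to 1838 (125) with the S phase score, from 0 to 2810 (116) with the G2/M score and from 0 to 2183 (0) with Cdkn1a, the highest of the last 3 without the depth term. Of the 54 G2/M genes 0 to 45 (21) and of the 43 S phase genes 0 to 37 (18) were called, and the p53 targets called, 0 as reported, numbered at most 2, 4 and 6 in the 3 within-tumor contrasts. Without a filter on genes, Ccna2 and Chek1 with the S phase score and Ccne2 with the G2/M score no longer passed. With 1 tumor left out, fewer tumors entered the test. Genes detected in few cells, such as Rb1 in 41, limit what a difference can show at this depth.

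Signs that changed are given by setting. With a pseudocount of 10, Cdk6 was -0.00749 in B16PD1 minus B16, Trp53 0.000401 and Rb1 0.027 in R499 minus B16, Rb1 0.010 and Mdm2 0.0063 in R499 minus B16PD1, Cdkn1a -0.21 with the G2/M score and Mdm2 -0.036 with Cdkn1a. With TPM averaged over a tumor before the log2 was taken (plus 1), Cdk6 was -0.15 and Chek1 -0.21 in B16PD1 minus B16, Trp53 0.087, Rb1 1.25, Ccne1 0.053, Ccne2 0.052 and Chek1 0.035 in R499 minus B16, and Cdkn1a 0.20, Rb1 1.06, Cdk6 0.080, Chek1 0.25 and Mdm2 0.091 in R499 minus B16PD1. The 2 Rb1 values rest on R499016, where its mean was 7.80 TPM, against 0.57 to 1.30 in the other tumors. Rb1 was detected in 6 cells of R499016, and its highest value in any cell was 539 TPM. In percentage points of cells, Ccnd1 was 3.42 in B16PD1 minus B16, Ccne2 0.670 in R499 minus B16 and Cdkn1b -0.199 in R499 minus B16PD1. With more than 2000 genes detected, Ccnd1 was 0.064 in B16PD1 minus B16, Rb1 0.014 in R499 minus B16, Mdm2 0.12 in R499 minus B16PD1, Ccnd1 -0.023 and Ccnd3 -0.085 with the S phase score, Trp53 0.020 and Cdk6 -0.00759 with the G2/M score and Ccne1 0.024 with Cdkn1a. With the mean of each cell subtracted, Cdk6 was -0.0026 in B16PD1 minus B16, Rb1 0.099, Ccne1 0.042 and Ccne2 0.067 in R499 minus B16, Rb1 0.096 and Mdm2 0.052 in R499 minus B16PD1 and Ccnd3 -0.097 with the S phase score. Without a filter on cells, Ccne2 was 0.036 in R499 minus B16 and 0.0069 with Cdkn1a, and Cdkn1b -0.069 in R499 minus B16PD1. With under 5% of mitochondrial TPM, Rb1 was 0.0076 in R499 minus B16. With the number of genes detected as a covariate, Trp53 was 0.40, Chek1 0.056 and Mdm2 -0.40 in R499 minus B16, and Cdkn1a 0.96, Trp53 0.15 and Chek1 0.011 in R499 minus B16PD1. Without the depth term, Cdkn1a was 0.56, Cdkn1b 0.49, Rb1 0.023 and Mdm2 0.20 with the S phase score, Cdkn1b 0.85, Trp53 0.72, Rb1 0.10, Ccnd1 0.33, Ccnd3 0.61 and Mdm2 0.31 with the G2/M score, and Trp53 0.047, Rb1 0.17, Ccnd3 0.72, Ccne1 0.12, Ccna2 0.011 and Ccne2 0.15 with Cdkn1a. With the cells of middle score left out, Trp53 was -0.050 with the S phase score. Apart from the depth term, which enters by construction, the cause was not tested.

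Ranges over the fits with 1 tumor left out, for differences whose sign changed in them, were Rb1 -0.045 to 0.12, Ccnd1 -0.38 to 0.019, Cdk6 -0.11 to 0.17, Ccna2 -0.072 to 0.40 and Mdm2 -0.28 to 0.53 in B16PD1 minus B16. They were Trp53 -0.62 to 0.41, Rb1 -0.085 to 0.076, Ccne1 -0.13 to 0.0058, Ccne2 -0.21 to 0.14 and Mdm2 -0.37 to 0.45 in R499 minus B16. The ranges were Cdkn1a -1.02 to 0.48, Cdkn1b -0.0091 to 0.34, Rb1 -0.11 to 0.027 and Mdm2 -0.27 to 0.10 in R499 minus B16PD1. They were Trp53 -0.085 to 0.26, Ccnd1 -0.11 to 0.39, Ccnd3 -0.067 to 0.38 and Cdk6 -0.013 to 0.13 with the S phase score. The ranges were Cdkn1a -0.059 to 0.30, Trp53 -0.18 to 0.048 and Cdk6 -0.070 to 0.10 with the G2/M score. They were Rb1 -0.097 to 0.049, Ccnd3 -0.43 to 0.12, Ccne1 -0.15 to 0.030, Ccne2 -0.20 to 0.18 and Mdm2 -0.14 to 0.29 with Cdkn1a. Where a condition then had 1 tumor, that tumor was assumed to vary like the others.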

Other observations

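Several p53 targets that are not among the 10 genes were lower in cells with a high S phase score. Trp53inp1, a stress-induced nuclear protein gene, differed by -0.85 (SE 0.23, limma adjusted p = 0.154) and Btg2, an antiproliferative gene, by -0.32 (SE 0.11, adjusted p = 0.225), and each was lower in all 6 tumors, as were 3.70% of all genes. These genes were named after their values were seen, and neither passed the threshold. With the G2/M score, Ccnd2, the most widespread D-type cyclin, differed by -0.74 (SE 0.26, adjusted p = 0.236) and was lower in 5 of 6 tumors.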
